A study of Mus musculus with 24 samples.

Results

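miR-9 was followed across 24 small RNA libraries of mouse mammary tissue, together with the miRNAs whose levels varied with it from tumor to tumor. It is 1 of the 510 names in the table of miRNA counts, and it was taken by that name alone (mir-9 as the table writes it). The tumors came from female MMTV-PyMT mice on the FVB background, in which the mouse mammary tumor virus promoter drives the polyoma middle T oncoprotein in the mammary epithelium, and the normal glands came from age-matched FVB mice without the transgene. Mice were taken at 4 stages, hyperplasia at week 6, adenoma or mammary intraepithelial neoplasia at week 8, early carcinoma at week 10 and late carcinoma at week 12, with 3 tumor mice and 3 normal mice per stage. Whole glands or tumors were snap-frozen, so each library held RNA of epithelium, stroma, vessels and blood together. From histology, the paper reports that carcinomas were mostly tumor cells with few stromal and muscle cells. Hyperplasias and adenomas, it states, contained normal gland cells as well.

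miRNAs are short RNAs that guide the silencing complex to mRNAs that pair with their seed, the bases near their 5′ end. miR-9 is best known from the nervous system, where it is abundant and acts on the balance between dividing progenitors and differentiating neurons. In breast cancer cells it has been described as a target gene of MYC and MYCN, as a repressor of the mRNA of E-cadherin and as a miRNA that favours motility and metastasis.

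The mature sequences of miR-9 are shown because their seeds set the pool of mRNAs that it can pair with. In the RefSeq entries of assembly GRCm38.p6, with bases 2 to 8 in capitals, the products of the 5′ and 3′ arms of the hairpin read as follows.
miR-9-5p: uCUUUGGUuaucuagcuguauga
miR-9-3p: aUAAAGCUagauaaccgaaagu
No other mature mouse miRNA of this reference table had either seed. Each mature sequence had exactly 3 perfect matches in the mm9 genome, all on the plus strand. They lie in the hairpins Mir9-1 at chr3:88019520-88019608, in an intron of the long noncoding RNA gene Gm3764, Mir9-2 at chr13:83878419-83878490, in an exon of C130071C03Rik, and Mir9-3 at chr7:86650150-86650239, in an intron of AI854517. The 3 hairpins are printed to show that they differ only outside the mature arms, which are in capitals.
Mir9-1: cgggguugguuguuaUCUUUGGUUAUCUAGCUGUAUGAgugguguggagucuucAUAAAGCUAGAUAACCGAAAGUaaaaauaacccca
Mir9-2: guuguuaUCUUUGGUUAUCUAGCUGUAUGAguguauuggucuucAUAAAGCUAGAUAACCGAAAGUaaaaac
Mir9-3: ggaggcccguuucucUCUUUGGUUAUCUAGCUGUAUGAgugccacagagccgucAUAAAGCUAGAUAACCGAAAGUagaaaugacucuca
The deposited counts carry 1 value per name, so the 3 loci and both arms could not be separated. The paper does not state how reads that match several loci were counted.

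Tumor libraries held between 1032241 and 2213972 counts, and those of normal glands between 1626022 and 3931375. Levels below are CPM, a count scaled to its library, after TMM normalization, which sets the scale by the bulk of the miRNAs. A count of 3, taken as the detection floor, corresponded to between 0.763 and 2.91 CPM before that scaling, and miR-9 was above it in all 24 libraries. Floors cover counting error only. For the 237 miRNAs that passed a filter on low counts, differences were tested by the quasi-likelihood method of edgeR, p-values were adjusted by Benjamini and Hochberg's method, and an adjusted p under 0.05 was called.

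miR-9 was low and even in normal glands. Its level was 21.3, 11.5 and 14.3 CPM in the 3 normal glands of week 6. It was 15.9, 22.9 and 12.1 CPM at week 8. It was 12.6, 14.5 and 14.3 CPM at week 10 and 24.3, 21.8 and 28.8 CPM at week 12. From the lowest to the highest of the 12 normal libraries the level differed 2.50-fold, with between 21 and 75 counts per library. The log2 difference from week 6 to week 12 in normal glands was 0.68 (standard error 1.26, adjusted p = 0.759, edgeR), where 21.1% of all tested miRNAs were called and 5.49% as higher at week 12. That standard error rests on 1 spread estimate shared by all 24 libraries, tumors included, so a small change in normal glands could not be resolved. All 3 normal glands of week 12 were above all 3 of week 6. Scaled to the total count alone these groups overlapped, with 20.5 CPM in replicate 1 of week 12 and 23.1 CPM in replicate 1 of week 6.

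In tumors the same miRNA varied over a 326-fold range. At week 6, the 3 hyperplasias had 21.4, 15.3 and 61.6 CPM, and only replicate 3 was above every normal gland. At week 8, the levels were 26.7, 1776 and 9.88 CPM, so that replicate 2 stood far above the other tumors of its stage and replicate 3 was below every normal gland. At week 10, the levels were 83.5, 124 and 29.6 CPM. At week 12, the levels were 259, 106 and 3218 CPM. All tumor libraries of weeks 10 and 12 were above all normal libraries of the same week, and those of weeks 6 and 8 overlapped with them. Among all tested miRNAs, tumor libraries lay wholly above normal libraries for 34.2% at week 6, 32.1% in week 8, 36.3% in week 10 and 33.3% in week 12, and for 18.6% all 12 tumors were above all 12 normal glands.

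In all, 8 of the 12 tumors had more miR-9 than the highest normal gland. The tumors summed to 7186 counts of miR-9, and 80.4% of these came from 2 libraries, replicate 2 of week 8 with 1511 counts and replicate 3 of week 12 with 4263 counts. By count, miR-9 held rank 56 in the former library and rank 42 in the latter, against ranks 103 to 201 in the other tumors and 153 to 200 in normal glands. It made up 0.298% of the counts of replicate 3 of week 12 and 0.00102% of those of replicate 3 of week 8. Replicate 2 of week 8 was also the library with the lowest total count, 1032241, and the lowest TMM factor among tumors, 0.824. Without TMM, scaled to the total count alone, its miR-9 level was 1464 CPM. Replicate 3 of week 12 had a TMM factor of 0.926. Over the 12 tumors, the correlation of log2 miR-9 was -0.414 with the log2 TMM factor and -0.363 with the log2 total count. The part of scaling and depth in the level of miR-9 was not tested.

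**Figure D1:**
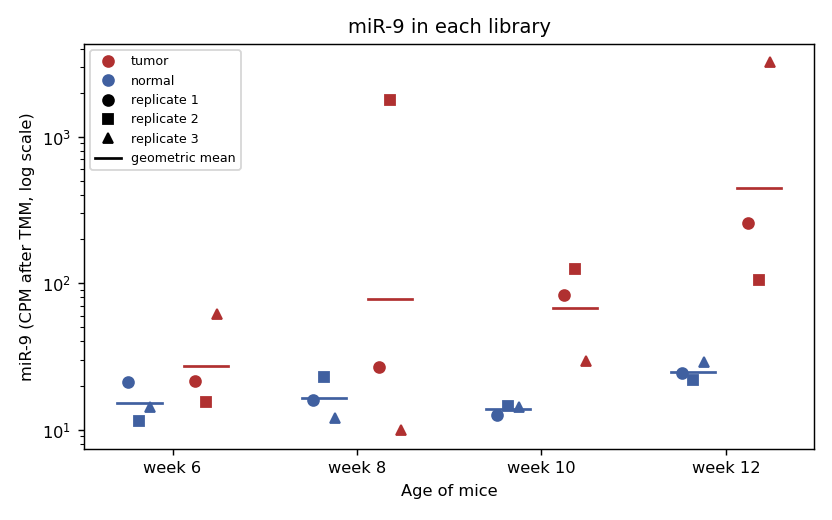
Level of miR-9 in each of the 24 libraries, in CPM after TMM on a log axis, by age in weeks, with tumors in red, normal glands in blue, a symbol per replicate number and a bar at the geometric mean of each group of 3. Normal glands stay between 11.5 and 28.8 CPM, while tumors range from 9.88 to 3218 CPM, with 1 library far above the rest at week 8 and 1 at week 12.

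The tumors were then compared with normal glands at each week, to see at which stages miR-9 differed. At week 10, miR-9 rose by 2.51 on the log2 scale (standard error 0.49, n = 3 per group, adjusted p = 0.00468, edgeR). The groups there were 79.1 ± 47.5 CPM in tumors and 13.8 ± 1.05 CPM in normal glands (SD, n = 3). At week 12, it rose by 5.57 (standard error 1.30, adjusted p = 0.0105, edgeR), with 1194 ± 1754 CPM in tumors and 24.96 ± 3.51 CPM in normal glands (SD, n = 3). The differences at week 6, 1.10 (standard error 0.54, adjusted p = 0.118, edgeR), and at week 8, 5.10 (standard error 1.78, adjusted p = 0.0573, edgeR), did not pass the test. Of all tested miRNAs, 58.6% were called at week 6 (29.1% as higher in tumors), 35.4% in week 8 (21.9%), 60.3% in week 10 (32.9%) and 50.6% in week 12 (29.1%). Ordered by signed log2 fold change from the most positive down, miR-9 was at rank 1 of 237 at weeks 8 and 12, at rank 11 at week 10 and at rank 51 at week 6. The week 10 call was lost in a single fit of all 24 libraries (2.51, adjusted p = 0.104, edgeR), and the week 12 call with robust dispersion (5.57, adjusted p = 0.0549, edgeR).

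At weeks 8 and 12 the size of the difference was decided by 1 tumor each. Without replicate 2 of the tumors, the log2 fold change at week 8 was 0.09 (adjusted p = 0.888, edgeR), and without replicate 1 or replicate 3 it was 5.66 (adjusted p = 0.0341) or 5.71 (adjusted p = 0.0181). Without replicate 3 of the tumors, the log2 fold change at week 12 was 2.85 and was still called (adjusted p = 0.00458, edgeR). At week 10, it stayed between 2.04 and 2.90 whichever library was left out. At week 6 it was 0.34 without replicate 3 of the tumors. With same-numbered libraries as a replicate block, the week 8 value was 2.01 (adjusted p = 0.0574, edgeR), against 5.10 without it.

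Over the 4 weeks together, in 1 fit of all libraries, the mean log2 fold change of miR-9 was 3.58 (standard error 0.68, adjusted p = 9.06e-05, edgeR), the most positive of 237. In that contrast 85.7% of the tested miRNAs were called, 38.8% as higher in tumors and 46.8% as lower. The mean within-week difference of log2 CPM, which weights every tumor equally, was 2.35 (exact permutation test within weeks, two-sided, p = 0.000625). Without replicate 2 of week 8 and replicate 3 of week 12, the 2 tumors with most miR-9, it was 1.43 (exact permutation test, p = 0.00165). Within the 2 sequencing lanes, each with 6 tumors and 6 normal glands, the difference was 2.23 and 2.47 (exact permutation test, p = 0.0417 and 0.0278). Tumor was higher than normal in 11 of 12 pairs with the same week and replicate number, and lower in replicate 3 of week 8, by -0.27 on the log2 scale. The smallest excess, in replicate 1 of week 6, was 0.011, at 21.4 against 21.3 CPM. Scaled to the total count alone, that tumor was lower than its normal gland, at 20.5 against 23.1 CPM.

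Whether miR-9 changed along progression was tested inside tumors and as a shift of its excess over normal glands. Late carcinomas had more miR-9 than hyperplasias, with a log2 difference of 5.18 (standard error 1.46, n = 3 per group, adjusted p = 0.0387, edgeR), where 7.59% of all tested miRNAs were called and 4.22% as higher at week 12. That call was lost without any 1 of 5 tumors, and without replicate 3 of week 12 the difference was 2.53 (adjusted p = 0.276, edgeR). Without replicates 1, 2 and 3 of week 6 in turn it was 4.94, 4.94 and 6.01 (adjusted p = 0.175, 0.0917 and 0.0967, edgeR), and without replicate 2 of week 12 it was 5.72 (adjusted p = 0.0508, edgeR). Between weeks 6 and 12, the log2 fold change over normal glands shifted by 4.50 (standard error 1.84, unadjusted p = 0.0238, adjusted p = 0.321, edgeR), where 0.422% of miRNAs were called. Over the 4 weeks that log2 fold change did not vary past the threshold (F = 2.76, adjusted p = 0.938, edgeR), in a test where 0% were called and 9 had an unadjusted p under 0.05. The test over all 4 tumor stages did not pass either, with F = 6.21 and an adjusted p of 0.131 (edgeR), in a comparison where 0% were called and 39 had an unadjusted p under 0.05. Without replicate 2 of week 8, F was 18.8 (adjusted p = 0.00192), and without replicate 3 of week 8 it was 9.03 (adjusted p = 0.0319).

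By its spread, miR-9 was near the top of the tested miRNAs in tumors and near the middle in normal glands. The standard deviation of its log2 CPM was 2.58 over the 12 tumors and 0.43 over the 12 normal glands, against medians over all tested miRNAs of 0.35 in tumors and 0.43 in normal glands. Of 237 miRNAs it was at rank 5 by spread in tumors and at rank 120 in normal glands. The 4 miRNAs with more spread in tumors were miR-133a (3.40), miR-1 (2.83) and miR-133b (2.76), which belong to skeletal muscle, and miR-196a (2.85), which is encoded in the Hox clusters and marks body position. Each of these 4 also varied strongly in normal glands, with standard deviations between 3.58 and 4.05. Inside weeks, miR-9 had a standard deviation of 2.45 in tumors and 0.32 in normal glands. No test of a difference in spread was run.

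**Figure D2:**
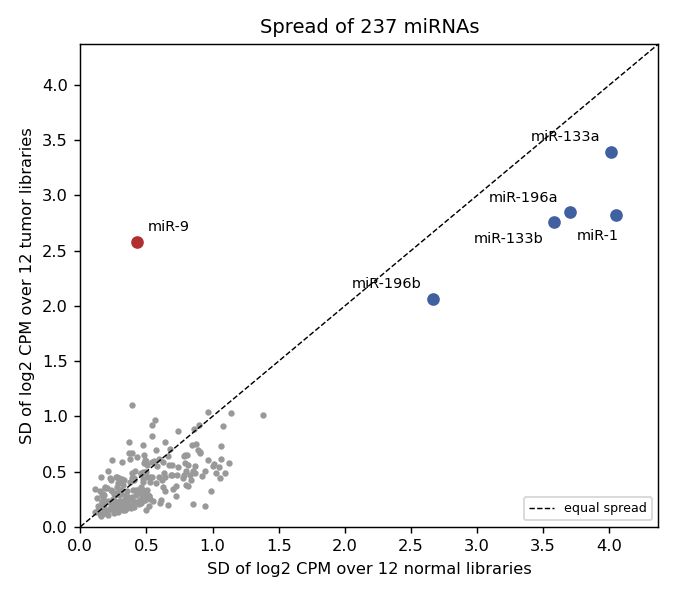
Standard deviation of log2 CPM over the 12 tumor libraries (vertical axis) against that over the 12 normal libraries (horizontal axis), 1 point for each of 237 miRNAs, with a dashed line of equal spread. miR-9, in red, lies at 2.58 against 0.43, while miR-133a, miR-196a, miR-1, miR-133b and miR-196b, in blue, vary in both kinds of tissue.

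miRNAs that varied with miR-9 were sought over the 12 tumors, with Pearson's r and Spearman's rho of log2 CPM against miR-9, permutation tests of 100000 resamples and Benjamini-Hochberg adjustment over the 236 other miRNAs. By r, 11 were called (4.66%), 4 of them positive (1.69%) and 7 negative (2.97%). The positive ones were miR-423, miR-425, miR-674 and miR-191. The negative ones were miR-218, miR-16, miR-10a, miR-126, miR-10b, miR-411 and miR-136. By rho none was called, the lowest adjusted p was 0.0513 and 62 miRNAs had an unadjusted p under 0.05. Without replicate 3 of week 12 and replicate 2 of week 8, the 2 tumors farthest from the median of miR-9, none was called by r either and 24 had an unadjusted p under 0.05, and the r of the called miRNAs without these tumors is given with each. None was called as well when a single tumor was left out, for each of replicate 2 of week 6, replicates 2 and 3 of week 8 and replicate 3 of week 12. Scaled by library sizes in place of TMM, none was called and 65 had an unadjusted p under 0.05. None was called after subtraction of the week means, with 28 at an unadjusted p under 0.05, and none within either sequencing lane of 6 tumors, with 39 and 28. With so few possible rearrangements, a miRNA could not pass the adjustment in these settings unless several others also had p-values near the lowest possible. The absence of calls there thus cannot decide about any single miRNA. The lowest adjusted p was 0.0910 after subtraction of the week means and 0.131 and 0.328 within the lanes (permutation tests). The median r over all 236 was -0.144, and it was -0.290 with library sizes in place of TMM and 0.0165 with DESeq2 size factors. miR-9 itself had r = 0.531 with week over the 12 tumors. Of the called miRNAs, miR-10b and miR-136 were lower in tumors of week 12 than of week 6 (log2 difference -1.13 and -1.34, adjusted p = 0.0233 and 0.0387, edgeR). None of the others passed that contrast. For single miRNAs, r after subtraction of the week means is given only for the 5 highest by that measure.

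All 11 called miRNAs had a RefSeq entry, and the sequences of 9 of them are shown with bases 2 to 8 in capitals, to let the reader see which share a seed. In GRCm38.p6 the arms named, with miR-126 listed as miR-126a, read as follows.
miR-423-5p: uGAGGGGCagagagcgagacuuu
miR-425-5p: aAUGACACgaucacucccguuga
miR-674-5p: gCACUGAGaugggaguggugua
miR-191-5p: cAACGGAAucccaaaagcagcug
miR-10a-5p: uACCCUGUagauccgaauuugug
miR-10b-5p: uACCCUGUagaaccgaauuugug
miR-126a-3p: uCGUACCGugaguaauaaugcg
miR-218-5p: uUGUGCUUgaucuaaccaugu
miR-16-5p: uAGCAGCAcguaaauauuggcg
None of these has a seed of miR-9. miR-10a and miR-10b share theirs and are near-identical along their length, so reads could have been split between them in counting. The seed of miR-674-5p is also that of miR-1947-3p, and miR-1947 was among the 5 miRNAs with the highest r after subtraction of the week means, although the counts do not tell which arm was measured.

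Among the positive relations, miR-423 had r = 0.849 (permutation p = 0.00045, adjusted p = 0.0264) and rho = 0.867 (p = 0.00051, adjusted p = 0.0513). It lay between 1674 and 3018 CPM in tumors, a far narrower range than that of miR-9. Within the lanes r was 0.832 and 0.872, and without the 2 farthest tumors it was 0.760. miR-191, transcribed together with miR-425, had r = 0.807 (permutation p = 0.0015, adjusted p = 0.0371) and rho = 0.860 (p = 0.00082, adjusted p = 0.0513). Its level was 17776 CPM in replicate 2 of week 8 and 17663 CPM in replicate 3 of week 12, above the 10857 to 16605 CPM of the other 10 tumors. Within the lanes r was 0.907 and 0.719, without the 2 farthest tumors it was 0.626, and after subtraction of the week means it was 0.945.

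miR-425 had r = 0.825 (permutation p = 0.00056, adjusted p = 0.0264) and rho = 0.825 (p = 0.00145, adjusted p = 0.0523), with 0.873 and 0.819 within the lanes. miR-674 had r = 0.809 (permutation p = 0.0011, adjusted p = 0.0324) and rho = 0.832 (p = 0.00152, adjusted p = 0.0523), with 0.798 and 0.825 within the lanes. Without the 2 farthest tumors, r fell to 0.662 for miR-425 and to 0.733 for miR-674. The next 6 by r, none of them called, were miR-27b (0.768), miR-141 (0.765), miR-30c (0.759), miR-30d (0.735), miR-30a (0.735) and miR-151 (0.735). Of these, miR-151, which lies in an intron of the focal adhesion kinase gene, had r = -0.146 without the 2 farthest tumors. After subtraction of the week means, the 5 highest r were those of miR-191, miR-151 (0.885), miR-135a (0.844), miR-423 (0.836) and miR-1947 (0.824), with adjusted p between 0.0910 and 0.388 by exact permutation within weeks. The 5 miRNAs most like miR-9 over all 24 libraries were miR-30a, miR-140, miR-27b, miR-425 and miR-34a. Their r over all libraries is not given, since tumor and normal libraries stand apart.

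miR-218, which is encoded in introns of the Slit genes, had the lowest r, -0.902 (permutation p = 0.00033, adjusted p = 0.0264), with rho = -0.811 (p = 0.00232, adjusted p = 0.0576). It had 32.9 CPM in replicate 2 of week 8 and 26.4 CPM in replicate 3 of week 12, below the 46.3 to 71.9 CPM of the other 10 tumors. Its r was -0.849 and -0.982 within the lanes and -0.611 without the 2 farthest tumors. miR-16, of the family that restrains the cell cycle, had r = -0.881 (permutation p = 5e-05, adjusted p = 0.0118) and rho = -0.853 (p = 0.00087, adjusted p = 0.0513). Its range in tumors was narrow, from 2443 to 3797 CPM, and r was -0.858 and -0.910 within the lanes and -0.777 without the 2 farthest tumors.

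miR-10a, a Hox-cluster miRNA, had r = -0.880 (permutation p = 0.0005, adjusted p = 0.0264) and rho = -0.832 (p = 0.00155, adjusted p = 0.0523). Its level was 18782 CPM and 23624 CPM in the same 2 tumors, against 29723 to 49444 CPM in the other 10 and 58230 to 110336 CPM in normal glands. miR-126, the miRNA of endothelial cells, had r = -0.831 (permutation p = 0.0009, adjusted p = 0.0317) and rho = -0.804 (p = 0.00244, adjusted p = 0.0576). It stood at 6568 CPM and 8571 CPM in these tumors and between 10073 and 18254 CPM in the other 10. Within the lanes r was -0.930 and -0.885 for miR-10a and -0.888 and -0.973 for miR-126, and without the 2 farthest tumors it was -0.679 and -0.586. In bulk tissue, fewer cells of a type and less of a miRNA per cell cannot be told apart.

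The other called miRNAs were miR-10b, reported to promote invasion of breast cancer cells, with r = -0.820 (permutation p = 0.00094, adjusted p = 0.0317) and rho = -0.797 (p = 0.00319, adjusted p = 0.0621), and a pair from the imprinted Dlk1-Dio3 domain. Of this pair, miR-411 had r = -0.795 (permutation p = 0.00157, adjusted p = 0.0371) and rho = -0.874 (p = 0.00051, adjusted p = 0.0513). miR-136 had r = -0.787 (permutation p = 0.00196, adjusted p = 0.0421) and rho = -0.790 (p = 0.00335, adjusted p = 0.0621). Within the lanes r was -0.944 and -0.717 for miR-10b, -0.668 and -0.933 for miR-411, and -0.666 and -0.934 for miR-136. Without the 2 farthest tumors r was -0.634 for miR-10b, -0.741 for miR-411 and -0.649 for miR-136. The level of miR-10b was lower in every tumor, at 19514 to 78032 CPM, than in any normal gland, at 117092 to 206808 CPM. miR-199b had the fifth lowest r, -0.828, and was not called (permutation p = 0.00256, adjusted p = 0.0503).

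**Figure D3:**
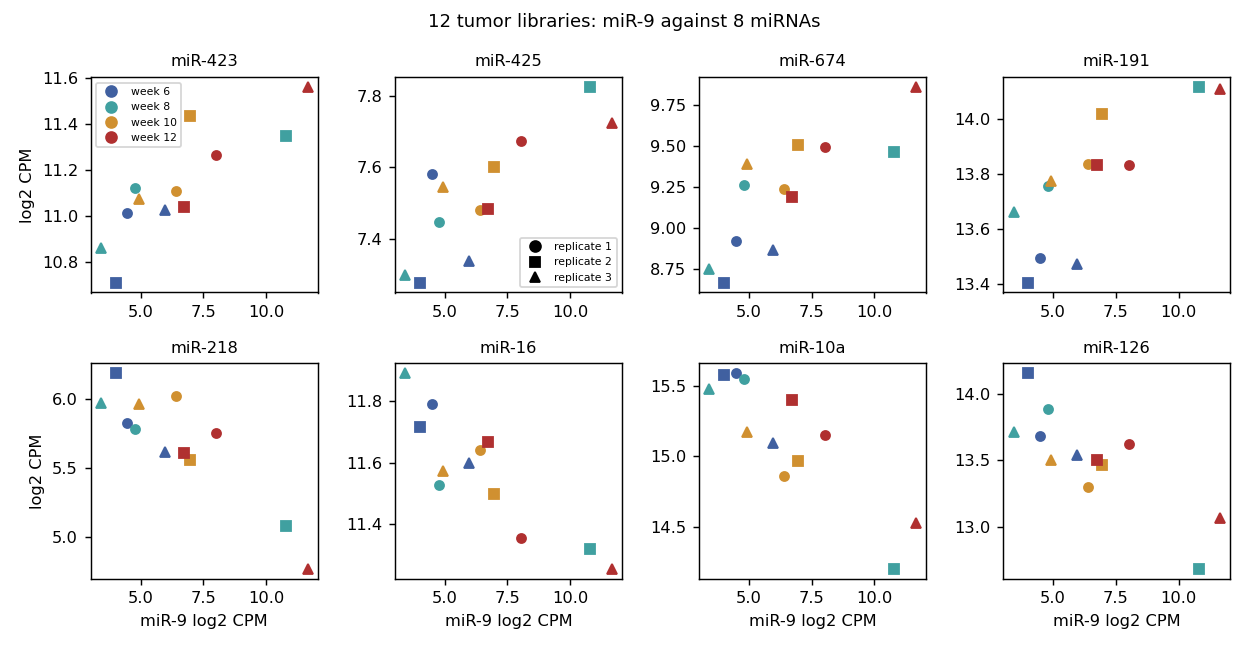
Log2 CPM of 8 miRNAs (vertical axes) against log2 CPM of miR-9 (horizontal axes) in the 12 tumor libraries, coloured by age in weeks with a symbol per replicate. The top row shows the 4 positive relations that were called, with r from 0.807 to 0.849, and the bottom row the 4 negative ones with the lowest r, from -0.902 to -0.831; the 2 tumors farthest right are replicate 2 of week 8 and replicate 3 of week 12.

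As a test on counts inside stages, the slope of every miRNA on log2 CPM of miR-9 was fitted over the 12 tumors in edgeR with the week as a factor. It was called for 8 of 236 miRNAs (3.39%), 1 positive and 7 negative. miR-135a had the positive slope, a rise of 0.44 on the log2 scale per doubling of miR-9 (standard error 0.09, adjusted p = 0.0141, edgeR), at low levels between 1.48 and 29.4 CPM and with 3 to 25 counts per tumor. miR-10a had the lowest adjusted p, with a slope of -0.20 (standard error 0.02, adjusted p = 8.8e-04, edgeR). miR-205, a miRNA of basal and progenitor epithelium, had a slope of -0.22, and miR-10b, miR-126, miR-139, miR-195 and miR-214 had slopes between -0.19 and -0.12. miR-10a, miR-10b and miR-126 were called by both the correlation and the slope. Without replicate 2 of week 8 the slope was called for 0 miRNAs, with 23 at an unadjusted p under 0.05, and without replicate 3 of week 8 for 2.

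Markers of the tissue's cell types were set beside miR-9 in the same tumors. The 10 miRNAs of the epithelial list, the miR-200 family among them, summed to between 57013 and 98241 CPM in tumors and between 15327 and 30652 CPM in normal glands, so epithelial miRNAs were present in both kinds of tissue. Of these 10, 8 had a positive r with miR-9, as did 98 of all 236, and none was called. Their median r was 0.468, from miR-205 at -0.687 to miR-141 at 0.765, where the median of all tested miRNAs was -0.144. Without the 2 farthest tumors the medians were 0.292 for the list and -0.0632 for all tested miRNAs. After subtraction of the week means they were 0.564 and -0.0170. The summed level was 98241 CPM in replicate 2 of week 8 and 80669 CPM in replicate 3 of week 12, the 2 highest of the 12 tumors.

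The stroma list ran the other way. All 9 tested members had a negative r, with a median of -0.654 from miR-10a at -0.880 to miR-99a at -0.266, and 1 of them, miR-10a, was called. Of all 236 miRNAs, 138 had a negative r. Without the 2 farthest tumors the median of the stroma list was -0.176, and after subtraction of the week means it was -0.734. The 9 members summed to 105731 CPM in replicate 2 of week 8 and 107065 CPM in replicate 3 of week 12, the 2 lowest of the 12 tumors, whose sums reached 201339 CPM. In normal glands the sum was between 254516 and 448218 CPM. The 3 erythroid miRNAs, miR-144, miR-451 and miR-486, had a median r of -0.605, the 4 tested leukocyte miRNAs of -0.268 and the 3 tested muscle miRNAs of -0.311, with none called. Every tested member of these lists had a negative r, as in the stroma list. Sums of these lists ranged in tumors from 2060 to 13679 CPM for the erythroid, from 2287 to 3327 CPM for the leukocyte and from 40.8 to 18081 CPM for the muscle list. Replicate 2 of week 8 and replicate 3 of week 12 did not share a position among the tumors in these lists. From the lowest of the 12 tumors, they held ranks 1 and 5 for the erythroid, 7 and 1 for the leukocyte and 3 and 8 for the muscle list. In normal glands the 3 sums ranged from 7798 to 34558, from 3130 to 5628 and from 90.5 to 89385 CPM. The part of these levels in the relations with miR-9 was not tested.

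Since miR-9 is abundant in nervous tissue, the miRNAs of a neural list were examined separately. miR-124, the most abundant miRNA of neurons, had 0 to 4 counts per tumor, and miR-137 had 0 counts in every tumor. miR-7b had 0 counts in every tumor, and miR-383, miR-488 and miR-873 had at most 1 count in any tumor. miR-129 reached 38 counts in tumors. In normal glands miR-124 had 1 to 16 counts and miR-129 reached 274. Of 16 names listed, 15 are in the table, 14 had counts and 8 passed the filter. The median r of these 8 was 0.0475, or 0.199 without the 2 farthest tumors and 0.0423 after subtraction of the week means. Values ran from -0.902 for miR-218 to 0.575 for miR-7a. The others were miR-219 (-0.653), miR-138 (-0.478), miR-132 (-0.113), miR-128 (0.208), miR-129 (0.241) and miR-212 (0.377). Only miR-218 was called. The list summed to 514 CPM in replicate 2 of week 8 and 506 CPM in replicate 3 of week 12, at ranks 6 and 5 from the lowest of the 12 tumors, whose sums lay between 456 and 580 CPM. In normal glands its sum was between 365 and 1239 CPM.

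The 3 lists of MYC and metastasis miRNAs were set beside miR-9 last. Of the 9 miRNAs that MYC is known to induce, those of the miR-17 and miR-106b clusters, all 9 were called higher in tumors over the 4 weeks together, against 38.8% of all tested miRNAs, and none was called in the correlation with miR-9, against 4.66%. Their median r was -0.0701, from miR-18a at -0.336 to miR-92a at 0.387. It was -0.246 without the 2 farthest tumors and 0.0539 after subtraction of the week means. Of 23 miRNAs that MYC is known to repress, the let-7, miR-26, miR-29 and miR-30 families among them, 13 were called lower in tumors and 5 higher, where 46.8% and 38.8% of all tested miRNAs were called in these directions. Of these 23, 14 had a positive r with miR-9 and only miR-16 was called, as negative. Their median r was 0.402 over the tumors, 0.316 without the 2 farthest tumors and 0.0495 after subtraction of the week means. Among 8 tested miRNAs linked to metastasis, the median r was -0.268, from miR-126 at -0.831 to miR-31, described as a suppressor of metastasis, at 0.690, and miR-126 and miR-10b were called. The median of these 8 was -0.225 without the 2 farthest tumors and -0.506 after subtraction of the week means.

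**Figure D4:**
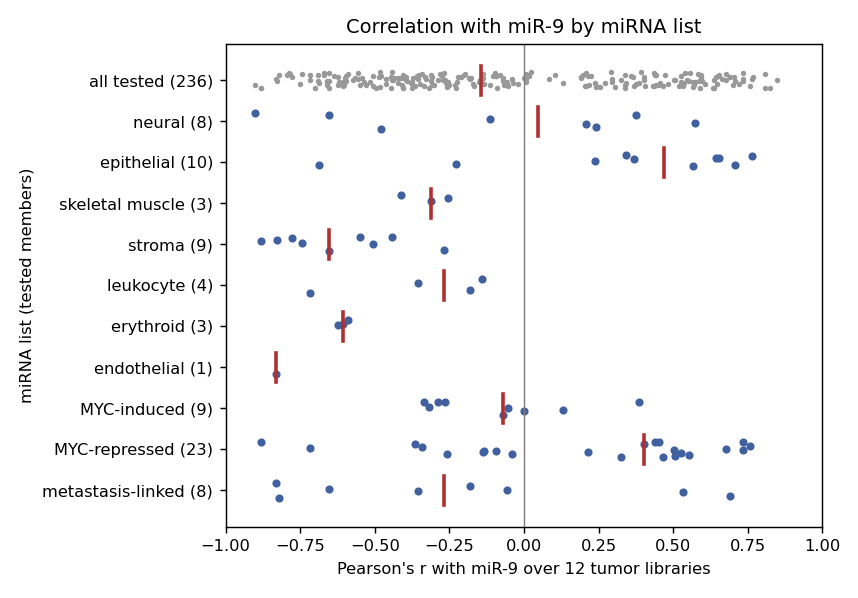
Pearson's r with miR-9 over the 12 tumor libraries (horizontal axis) for all 236 tested miRNAs and for the tested members of each list, whose number is in parentheses; each point is a miRNA, spread vertically only to keep points apart, and the red bar is the median. Epithelial miRNAs have a median of 0.468, stroma miRNAs lie wholly below 0 with a median of -0.654, and neural miRNAs are spread on both sides. The shorter skeletal muscle, leukocyte, erythroid and endothelial lists also lie wholly below 0.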

How the data were processed

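Small RNA was sequenced from 24 mice. Per the labels and the methods, the authors removed adaptors, aligned the short reads with Bowtie and deposited raw read counts per miRNA name, without normalization. The labels name mm9 as the genome build and the paper mm10, so the coordinates here come from exact matches of the RefSeq sequences to mm9. Groups, weeks, replicate numbers and sequencing lanes came from the labels, and the replicates are separate mice. Amplified reads are not independent molecules.

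edgeR 4.0.16 in R 4.3.3 was run on the 237 miRNAs kept by filterByExpr, with TMM and the quasi-likelihood test, per week and in 1 fit of all libraries. The standard error is the log2 fold change divided by the square root of F. Log2 CPM used a prior count of 2. Correlations were tested with numpy 2.4.6 in Python 3.11.15, and week-centred values with all 1296 rearrangements within weeks. Scripts were tested on simulated data. Named miRNAs are the 10 highest and 5 lowest by r, the 5 highest by week-centred r, by r over all libraries and by spread, and the members of the lists. Others called by r or slope, and miR-196b, were named after their values were seen. miR-9 and the lists were chosen with earlier results of these data known. Alternatives included DESeq2 1.42.0, other filters and scalings, and left-out libraries.

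Libraries of tumor and normal gland with the same week and number deviated together, with a correlation over 0.1 in 10 of 12 pairs and in all pairs of weeks 6, 8 and 10. This is the only evidence of pairing at those weeks, and the libraries of every pair also shared a sequencing lane. Pairing of mice and a shared lane cannot be told apart here. At week 12 the lowest correlation was 0.0312. The values reported come from fits without the block, and the block was run as an alternative.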

Additional observations from a re-analysis of the deposited data

How the results depend on the processing

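At week 8, miR-9 became called without a filter (log2 fold change 5.11), with at least 10 counts in every library (5.05) and in a single fit of all libraries (5.14), and DESeq2 gave it no adjusted p. At week 10 it lost the call in the single fit (2.51, adjusted p = 0.104), and at week 12 with robust dispersion (5.57, adjusted p = 0.0549). The rise from week 6 to week 12 in tumors lost it with robust dispersion (5.18, adjusted p = 0.0515). With 1 library left out, the log2 fold change ranged from 0.34 to 1.49 at week 6, from 0.094 to 5.71 at week 8, from 2.04 to 2.90 at week 10 and from 2.85 to 6.22 at week 12. That of the 4 weeks together ranged from 2.29 to 3.71, the week 6 to week 12 difference in tumors from 2.53 to 6.01 and F between tumor stages from 4.71 to 18.8. The mean within-week difference was 2.68, 2.04 and 2.33 without replicate 1, 2 and 3 of every group in turn. It was 1.43 without the 2 tumors with most miR-9. The value of 1.43, without the 2 tumors with most miR-9, and the within-lane differences of 2.23 and 2.47 were chosen after seeing the data. With the replicate block, the week 12 value was 4.06 (adjusted p = 3.20e-04) and that of the 4 weeks 2.34. The block changed no call.

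The number of miRNAs correlated with miR-9 was 0 by Spearman's rho, with library sizes only, after week-centring, without the 2 tumors farthest from the median and within lane 1 or lane 2, and 6 after lane-centring. After week-centring and within lanes, the few possible rearrangements kept any single miRNA from being called alone. With 1 tumor left out it ranged from 0 to 19. It was 0 without replicate 2 of week 6, replicates 2 or 3 of week 8, or replicate 3 of week 12, it was 6 without replicate 1 of week 6 and 19 without replicate 3 of week 10. The slope on miR-9 was called for 14 miRNAs without the week factor and for 35 with DESeq2's Wald test, and for 0 to 12 with 1 tumor left out (5 without replicate 2 of week 12). The r of miR-151 turned to -0.146 without the 2 farthest tumors. The cause of these changes was not tested. With 3 mice per group and 19 to 44 counts of miR-9 in the lowest tumors, small differences could not be resolved.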
